A study of Arabidopsis thaliana with 40 samples.

Results

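The regions described here are the pericentromeric members of a set of peaks at which histone H2A monoubiquitination (H2Aub1) increased in *ubp12/13* over wt *Arabidopsis thaliana*. A peak was taken as a member when its start lay in a window around the centromere, which ran from 12.5 to 17 Mb on chromosome 1, from 2 to 6 Mb on chromosome 2, from 11.5 to 16 Mb on chromosome 3, from 2 to 6 Mb on chromosome 4 and from 10 to 14.5 Mb on chromosome 5 (TAIR10 coordinates). This rule uses position only, and it selected 299 of the 1285 peaks. The remaining 986 peaks are called arm peaks. The label was checked against sequence, and peaks made of the centromere satellite occurred inside the windows of all 5 chromosomes and nowhere in the arms.

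The series holds 40 samples, of which 2 data sets are used. The peaks came from ChIP-seq on rosette leaves of *ubp12/13* and wt plants grown for 15 days on medium and 2 weeks on soil, with 2 replicates per genotype of H2Aub1 and of H3. RNA-seq was made from whole seedlings grown for 15 days on medium and harvested 6 to 8 hours into the light, with 3 biological replicates each of *ubp12/13*, *ubp12*, *ubp13* and wt. All plants were Col-0. The mutants carried the T-DNA alleles *ubp12-1* and *ubp13-3*, alone or together, *ubp13-3* being a weak allele. The double mutant was sterile and was propagated through plants heterozygous for *ubp13-3*. Peaks and transcripts were thus measured in different organs and ages.

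H2Aub1 is placed on the C-terminal tail of H2A by Polycomb Repressive Complex 1 (PRC1), whose RING1 and BMI1 subunits act as the ubiquitin ligase, and UBP12 and UBP13 are the ubiquitin-specific proteases that take it off. The mark is known from gene bodies in the chromosome arms, many of which also carry H3K27me3. Pericentromeric sequence of *Arabidopsis* is mostly heterochromatin, with DNA methylation and H3K9me2, few expressed genes, and many transposons and tandem repeats. The centromeres themselves consist of a satellite repeated head to tail, and arrays of 5S ribosomal RNA genes lie beside some of them.

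Most of the members' sequence was repetitive, so the sequences are shown before the counts. Each peak was compared with itself at offsets from 2 to 1000 bases. The smallest offset whose match came close to the highest was kept, and it is called the best offset here. At that offset 160 of the 299 peaks matched themselves at 45% or more of their bases. For mostly single-copy members the match at that offset had a median of 30.5%. The most frequent best offset was 178 bases, found in 48 of these peaks. This is the length of the centromere satellite of *Arabidopsis*. One unit is shown from the widest member on chromosome 4, with its neighbour in the same array. For each other chromosome, the unit most like it within the widest peak of this kind is shown. In the first unit capitals mark each position at which any of the other units differs, and in the others they mark the bases that differ from the first unit.
chr4:3976603-3976780 (+): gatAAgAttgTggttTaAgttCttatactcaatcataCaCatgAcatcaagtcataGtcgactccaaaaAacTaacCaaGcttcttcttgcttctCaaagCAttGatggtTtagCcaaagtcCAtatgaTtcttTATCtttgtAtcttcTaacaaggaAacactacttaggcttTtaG
chr4:3976781-3976958 (+): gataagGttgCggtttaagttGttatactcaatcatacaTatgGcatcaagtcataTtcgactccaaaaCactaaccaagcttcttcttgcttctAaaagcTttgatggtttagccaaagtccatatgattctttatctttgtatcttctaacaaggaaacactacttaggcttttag
chr1:15083671-15083848 (-): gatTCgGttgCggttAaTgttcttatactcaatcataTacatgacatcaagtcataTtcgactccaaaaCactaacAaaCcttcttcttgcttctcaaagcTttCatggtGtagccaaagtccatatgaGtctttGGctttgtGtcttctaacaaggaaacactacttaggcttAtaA
chr2:3627784-3627961 (+): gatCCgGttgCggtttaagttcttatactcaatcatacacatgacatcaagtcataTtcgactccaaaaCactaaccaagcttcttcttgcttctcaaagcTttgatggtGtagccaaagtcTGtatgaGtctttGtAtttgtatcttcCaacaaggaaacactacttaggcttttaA
chr3:13589835-13590012 (-): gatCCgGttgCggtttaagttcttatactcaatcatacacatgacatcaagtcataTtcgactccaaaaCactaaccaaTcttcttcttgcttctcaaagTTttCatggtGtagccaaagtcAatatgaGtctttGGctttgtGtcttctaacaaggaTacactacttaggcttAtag
chr5:11733385-11733562 (-): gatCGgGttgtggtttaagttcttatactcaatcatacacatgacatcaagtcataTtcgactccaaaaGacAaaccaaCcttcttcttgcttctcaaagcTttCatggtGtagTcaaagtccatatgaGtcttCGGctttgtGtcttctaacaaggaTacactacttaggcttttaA
All 6 units were identical at 145 of 178 positions. The units of the other chromosomes were picked for their match to the first, so typical copies can differ more. The neighbouring unit on chromosome 4 shared 169 bases with the first, the chromosome 2 unit 163, the chromosome 3 and chromosome 5 units 160 each and the chromosome 1 unit 158.

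The next kind of array had units close to 500 bases, with best offsets of 484 to 511 bases in 45 peaks and of up to 1000 bases in 10 more. At the loci shown it carries the 5S ribosomal RNA gene, which the annotation used here does not list at these positions. The stretch of 180 bases that was most alike between loci is shown, since it holds most of the 5S gene and the sequence before it. Capitals have the same meaning, with the chromosome 4 unit as the first.
chr4:3058087-3058266 (+): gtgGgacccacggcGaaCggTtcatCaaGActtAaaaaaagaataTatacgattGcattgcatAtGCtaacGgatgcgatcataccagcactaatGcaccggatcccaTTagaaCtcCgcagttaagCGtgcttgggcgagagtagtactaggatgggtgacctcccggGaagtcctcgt
chr3:13706951-13707130 (-): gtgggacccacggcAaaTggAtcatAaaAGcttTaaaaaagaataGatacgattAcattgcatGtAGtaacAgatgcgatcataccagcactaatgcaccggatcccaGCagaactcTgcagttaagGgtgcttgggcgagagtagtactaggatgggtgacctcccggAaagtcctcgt
chr5:11185729-11185908 (+): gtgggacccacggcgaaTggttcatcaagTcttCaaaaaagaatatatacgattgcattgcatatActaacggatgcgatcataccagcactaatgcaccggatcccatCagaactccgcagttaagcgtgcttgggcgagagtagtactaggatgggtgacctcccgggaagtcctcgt
chr5:12823241-12823420 (-): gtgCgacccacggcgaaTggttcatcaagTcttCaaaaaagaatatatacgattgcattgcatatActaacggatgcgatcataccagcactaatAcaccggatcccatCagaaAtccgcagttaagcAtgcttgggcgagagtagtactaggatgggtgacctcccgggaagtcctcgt
These 4 stretches were identical at 158 of 180 positions. The chromosome 5 stretches shared 175 and 171 bases with chromosome 4, and the chromosome 3 stretch shared 162. Both the stretch and the copy within each peak were picked for their match. The values therefore hold for this stretch and do not describe whole units.

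On chromosome 2 the members included another kind, the nuclear copy of mitochondrial DNA. A stretch of 150 bases at chr2:3435770-3435919, inside the fifth widest member, was identical at 150 of 150 bases to the minus strand of the mitochondrial genome at positions 3605 to 3754, so a short read from it could have come from either genome.
chr2:3435770-3435919 (+): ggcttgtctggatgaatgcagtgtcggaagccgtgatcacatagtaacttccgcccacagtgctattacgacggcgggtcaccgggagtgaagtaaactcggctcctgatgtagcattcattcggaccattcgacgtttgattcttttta
Only 2 members were arrays of a unit shorter than 10 bases. The one on chromosome 1 held 11 copies of AAACCCT, the unit of the *Arabidopsis* telomere, in the 140 bases shown with the copies in capitals.
chr1:15116582-15116721 (+): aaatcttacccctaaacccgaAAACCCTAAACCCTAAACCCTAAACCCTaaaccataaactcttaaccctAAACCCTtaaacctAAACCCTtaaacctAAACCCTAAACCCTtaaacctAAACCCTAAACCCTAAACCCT

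Each peak was then placed in 1 of 7 classes, with limits chosen after the sequences had been looked at. The 178-base arrays held 81 members (27.1%) and the 500-base arrays held 55 (18.4%), while none of the 986 arm peaks was of either kind. The mitochondrial class, in which at least 50% of the 50-base words also occur in the mitochondrial genome, held 29 members (9.70%), against 1 arm peak. Arrays of other units held 22 members, the short-unit arrays 2, and dispersed repeats, in which at least 50% of the 50-base words occur more than once in the nuclear genome, 59 (19.7%). The remaining 51 members (17.1%) were mostly single-copy, against 924 arm peaks (93.7%). The composition of the members thus differed from that of arm peaks in nearly every class.

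The classes were unequally spread over the chromosomes. Chromosome 5 held 55 of the 81 peaks in 178-base arrays, chromosome 4 held 13, chromosomes 1 and 2 held 5 each and chromosome 3 held 3. Of the 55 peaks in 500-base arrays, 42 were on chromosome 3 and 11 on chromosome 5, with 1 each on chromosomes 1 and 4. All 29 mitochondrial members were on chromosome 2. Chromosome 1 stood apart in the other direction, with 18 of its 36 members mostly single-copy. In base composition the 178-base arrays were low in GC, with a median of 36.2%, against 38.7% in the 500-base arrays, 44.4% in the mitochondrial class and 41.5% in the single-copy members, the last being close to the 41.0% of single-copy arm peaks.

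**Figure D1:**
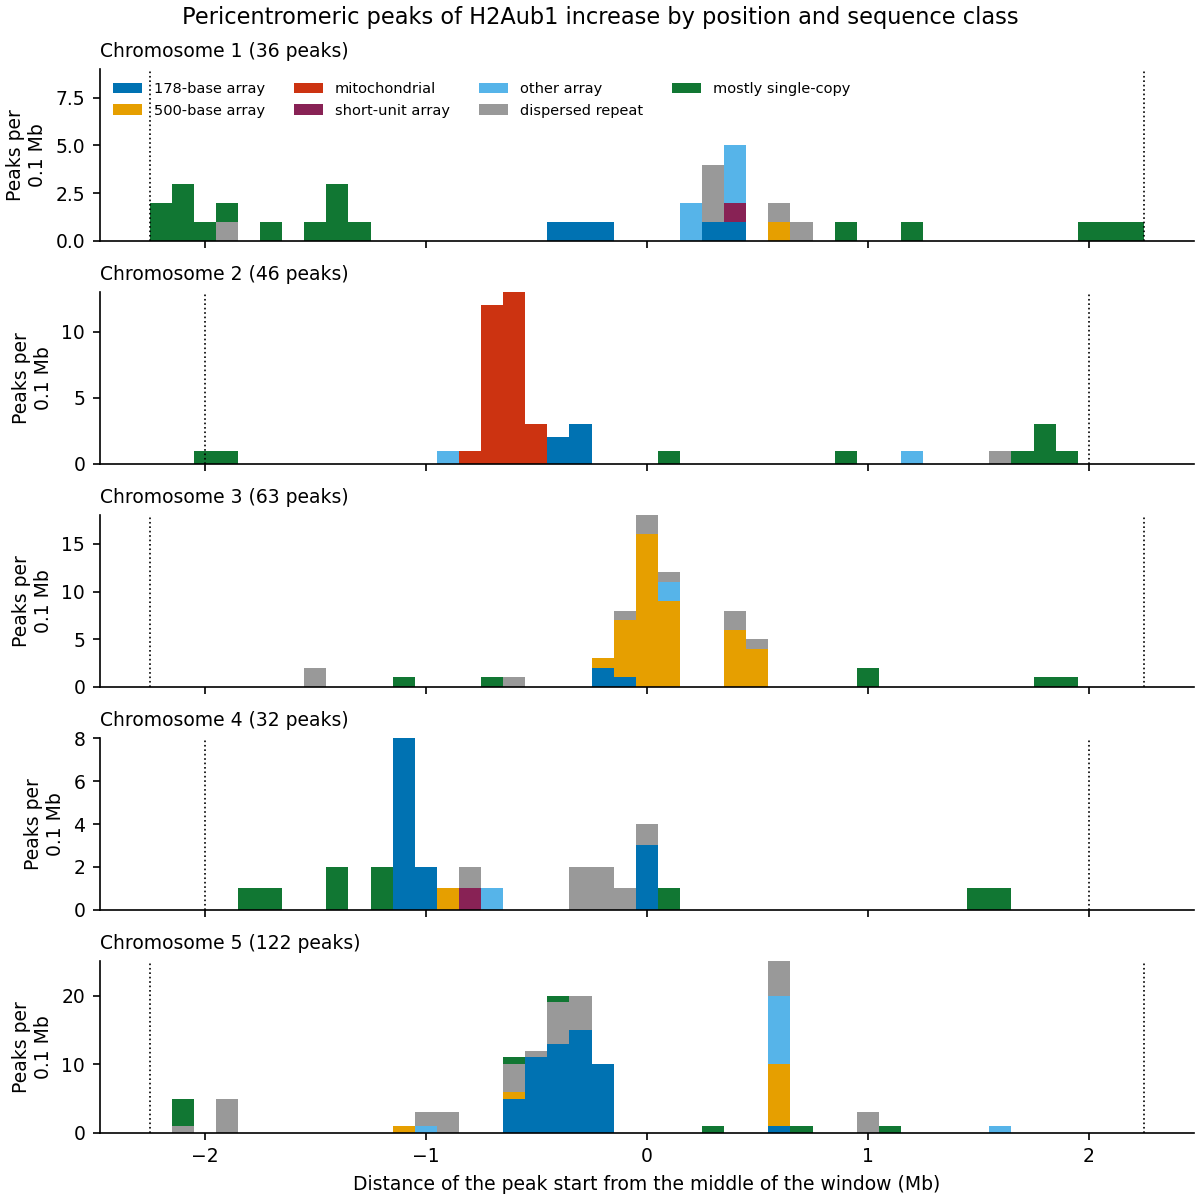
Number of pericentromeric peaks of H2Aub1 increase per 0.1 Mb (y axis) by distance of the peak start from the middle of the window (x axis, Mb), 1 panel per chromosome, with colours for the sequence class and dotted lines at the window edges. The peaks in 178-base arrays (81), 500-base arrays (55) and mitochondrial sequence (29) lie in a few narrow blocks, while the 51 mostly single-copy peaks lie mainly towards the edges.

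How far the repeated sequence limits the peak positions was measured with 50-base words. At least 50% of the words were repeated in the nuclear genome in 185 members (61.9%, 95% Wilson interval 56.3 to 67.2), against 55 arm peaks (5.58%). The difference of 56.3 percentage points had a Newcombe interval of 50.5 to 61.8. Over the whole windows 19.1% of all words were repeated, against 2.99% in the arms. A read from such a word has more than 1 equal place in the genome, so the member that received it is partly a matter of how the aligner placed it. In 36 members every word was repeated and in 46 members none was. These intervals, and all others given for peaks, cover counting error only, because the authors merged the replicates into 1 list whose score column holds 1 for every peak, and no p-value was computed.

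Units of the same class were related but not the same between chromosomes. Of the distinct 31-base words in the 178-base peaks of a chromosome, between 1.32% and 19.1% also occurred in those of another chromosome. The largest share was that of chromosome 2 words found on chromosome 5. Among 500-base loci the shares ran up to 18.9%, but the peaks of that class at chr1:15372952 and chr5:11674493 shared no word with any other locus, so these 2 were alike to the rest only in unit length.

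The windows hold 21.5 Mb, which is 18.1% of the nuclear genome, and they held 23.3% of the peaks and 33.8% of the bases in peaks. The density was 13.9 peaks per Mb in the windows, against 10.1 per Mb in the arms, a ratio of 1.38 with an exact 95% interval of 1.21 to 1.57. The excess was largest on chromosome 5, which had 27.1 peaks per Mb in its window, against 8.45 per Mb in its arms (ratio 3.21, 2.53 to 4.05). Chromosome 3 had a ratio of 1.39 (1.03 to 1.86). The ratio was 1.09 on chromosome 2 (0.771 to 1.53), 0.798 on chromosome 1 (0.547 to 1.13) and 0.648 on chromosome 4 (0.431 to 0.948). Without chromosome 5 the ratio over the others was 0.983 (0.831 to 1.16), so the density of the windows exceeded that of the arms on some chromosomes and fell below it on chromosome 4.

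The share of sequence covered by peaks separated the windows from the arms more widely than the number of peaks did. Peaks covered 3.07% of the windows, against 1.32% of the arms. On chromosome 5 the shares were 5.18% in the window and 1.14% in the arms, and on chromosome 2 they were 4.19% and 1.35%. Chromosome 1 was the exception, with 1.20% of its window and 1.34% of its arms covered. Against genes the contrast was larger, since the windows held 71.3 protein-coding genes per Mb, against 265 in the arms. There were 19.5 members per 100 protein-coding genes of the windows, against 3.81 arm peaks per 100 protein-coding genes of the arms.

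Split by class, the 2 kinds of member behaved differently. Members that were not single-copy numbered 248, or 11.5 per Mb, against 62 arm peaks, or 0.635 per Mb, a ratio of 18.2 (13.7 to 24.4). The 51 single-copy members amounted to 2.37 per Mb, against 9.46 per Mb for the 924 in the arms, a ratio of 0.251 (0.185 to 0.332). Per 100 protein-coding genes, however, the single-copy peaks numbered 3.33 in the windows and 3.57 in the arms, a ratio of 0.934 whose interval of 0.690 to 1.24 includes 1.

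Within the windows the peaks were uneven. Of 43 bins of 500 kb, 9 held no peak and the median was 2 peaks. The fullest bin, at chr5:11500001-12000000, held 63 peaks that covered 30.2% of it, and the fullest bins of chromosomes 3, 2, 4 and 1 held 41, 29, 14 and 12. These 5 bins, 1 per chromosome, held 159 of the 299 members (53.2%). The bins at the window edges held 0 to 10 peaks, each fewer than the fullest bin of its chromosome. On chromosome 1 the first bin held 8, beside 12 in the fullest. The peaks just inside the edges were about as wide as those just outside. The 10 members nearest to an edge were 400 to 1798 bp wide with a median of 1122 bp, and 7 were single-copy. The 10 arm peaks nearest to an edge were 734 to 3023 bp wide with a median of 1216 bp, and all 10 were single-copy.

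How much of each kind of sequence carried a peak was measured over tiles of 1 kb. Peaks covered 58.5% of the 383 tiles that were 178-base arrays, 38.2% of the 229 tiles that were 500-base arrays and 46.6% of the 269 tiles of mitochondrial words. Of the other 20442 tiles of the windows they covered 1.09%, against 1.32% of the arms. The share of the 178-base tiles was 64.4% on chromosome 4, 61.3% on chromosome 5, 58.5% on chromosome 2, 40.5% on chromosome 3 and 19.2% on chromosome 1. The 500-base tiles were covered at 63.8% on chromosome 5, 52.3% on chromosome 4 and 38.6% on chromosome 3, while the 20 such tiles of chromosome 1 were not covered at all. Tiles were classed apart from peaks, and the 1 peak of that class on chromosome 1 lay in tiles that were not classed so. The assembled satellite thus lay inside peaks to a much larger share than the rest of the windows on every chromosome, and least on chromosome 1, where 7 of 25 tiles were touched. The assembly holds only part of the true arrays, and reads from unassembled copies can only be placed on the assembled ones, a part in these values that was not tested.

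**Figure D2:**
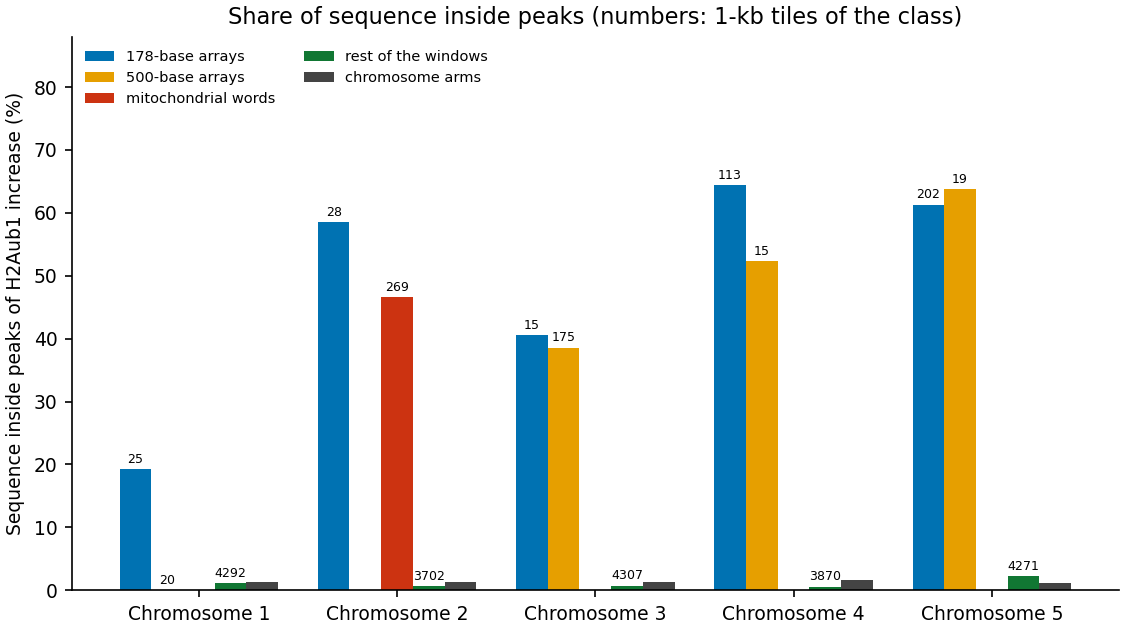
Share of sequence inside peaks of H2Aub1 increase (y axis, %) per chromosome (x axis) for the kinds of sequence in the windows and for the chromosome arms, with the number of 1-kb tiles above the bars. Coverage was 58.5% in 178-base arrays, 38.2% in 500-base arrays and 46.6% in mitochondrial words, against 1.09% in the rest of the windows.

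Members were wider than arm peaks. Their median width was 1410 bp (quartiles 940 to 2350, range 400 to 22490), against 1148 bp in the arms (889 to 1564, range 400 to 9807). The difference lay in the upper tail, since 49 members (16.4%, 12.6 to 21.0) were 3 kb or wider, against 15 arm peaks (1.52%), which is 14.9 percentage points more (11.0 to 19.5). Peaks of that width held 47.1% of the members' bases and 4.62% of the arm peaks' bases. At 5 kb or wider there were 27 members and 1 arm peak. By chromosome the median was 2178 bp on chromosome 2, 1540 bp on chromosome 5, 1496 bp on chromosome 4, 1290 bp on chromosome 1 and 1197 bp on chromosome 3.

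The width followed the sequence class. The median was 3082 bp in the mitochondrial class (range up to 11461), 1973 bp in 178-base arrays (up to 22490), 1400 bp in other arrays, 1234 bp in 500-base arrays (up to 7412) and 1192 bp in dispersed repeats (up to 13936). The single-copy members had a median of 1166 bp and none was wider than 2750 bp, beside a median of 1159 bp in single-copy arm peaks. Single-copy peaks thus had about the same typical width in both parts of the genome.

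The 5 widest members held 11.4% of the members' bases. The widest, chr4:3965358-3987847 (22490 bp), was a 178-base array whose bases matched those 178 bases on at 85.0%, and it reached into the pseudogene AT4G06708. The next, chr4:3997778-4011857 (14080 bp), was of the same kind and lay under no gene. The third, chr3:14191478-14205413 (13936 bp), had a GC content of 51.7% and held the ribosomal RNA genes AT3G41768 (18S) and AT3G41979 (5.8S), the microRNA gene MIR5642a, the protein-coding gene AT3G41762 and the RNA genes AT3G00650, AT3G00660, AT3G06325, AT3G06355, AT3G06365 and AT3G41761. The fourth, chr2:3614691-3628085 (13395 bp), was a 178-base array over the uncharacterized genes AT2G07981 and AT2G08986. The fifth, chr2:3430115-3441575 (11461 bp), lay in the mitochondrial insertion over 9 genes, AT2G05315, AT2G07648, AT2G07652, AT2G07718, AT2G07719, AT2G07721, AT2G07722, AT2G07723 and AT2G07809. These peaks were of 3 different kinds, namely satellite, ribosomal DNA and mitochondrial DNA.

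**Figure D3:**
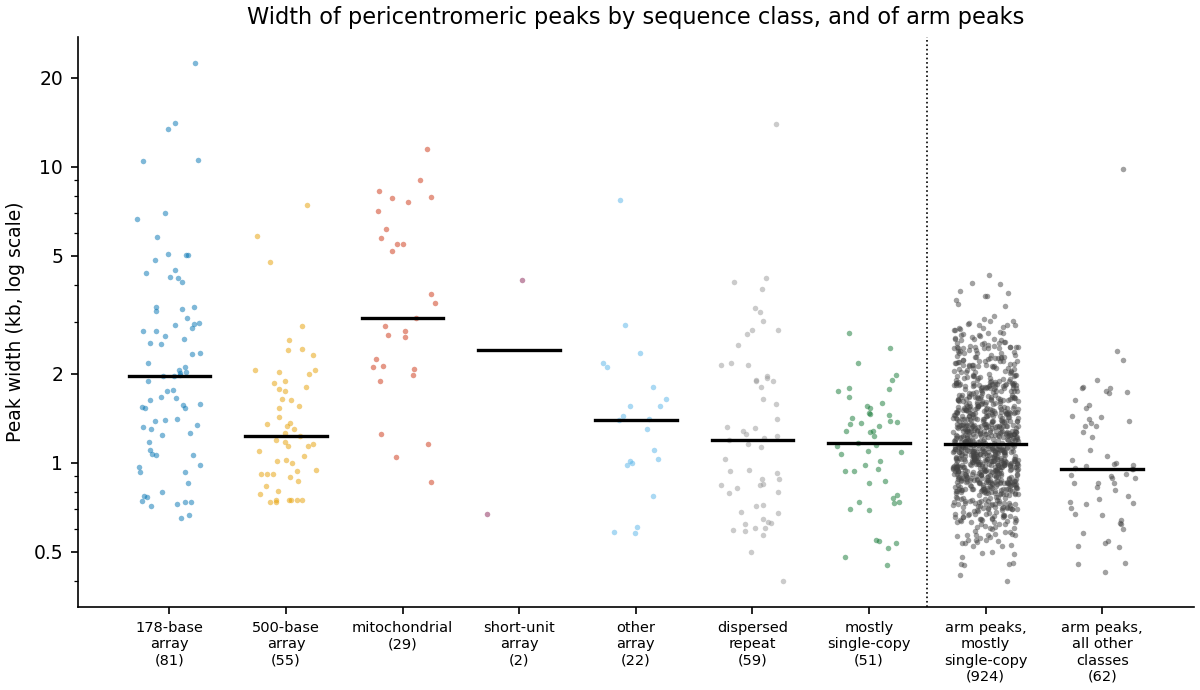
Width of each peak of H2Aub1 increase (y axis, kb, log scale) by sequence class (x axis, number of peaks in parentheses), with the pericentromeric peaks left of the dotted line, the arm peaks right of it, and a black line at each median. Medians run from 1166 bp in single-copy members to 3082 bp in the mitochondrial class, and the widest member, a 178-base array, is 22490 bp.

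The members lay close together. The median distance to the nearest other peak was 1377 bp, against 29220 bp for arm peaks. With gaps of at most 10 kb, 231 members (77.3%, 72.2 to 81.7) fell into 38 clusters, against 253 arm peaks (25.7%), a difference of 51.6 percentage points (45.8 to 56.7). Clusters of 5 or more peaks held 165 members (55.2%) in 13 clusters, against 32 arm peaks (3.25%) in 4 clusters. Of the members in such clusters 87 were on chromosome 5, 47 on chromosome 3, 21 on chromosome 2 and 10 on chromosome 4, while chromosome 1 had none.

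The cluster with the most peaks, chr5:11808058-11903530, had 21 peaks that covered 64.5% of 95473 bp. Of these, 14 were 178-base arrays, and the cluster's 7 genes, AT5G32089, AT5G32107, AT5G32125, AT5G32143, AT5G32161, AT5G32179 and AT5G32215, were all pseudogenes. Next came chr3:13681584-13737248, with 17 peaks over 41.7% of its span, 15 of them 500-base arrays and none over a gene. A cluster of equal number, chr5:11929092-11975636, had 13 peaks in 178-base arrays, covered 63% of its span, and touched the microRNA gene MIR854e (AT5G05005) and the pseudogenes AT5G32293, AT5G32306 and AT5G32312. The pseudogenes of these 2 chromosome 5 clusters had between 0 and 3 counts in total over all 12 RNA libraries. These 3 clusters consisted mostly of arrays, with pseudogenes that had almost no counts on chromosome 5. The next, chr2:3295478-3397986, had 16 peaks over 56.1% of 102509 bp, the longest span of all clusters, and was of another kind, with all its peaks mitochondrial and 44 genes under them, 18 of them protein-coding.

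A pair of neighbouring clusters on chromosome 5 shared part of their sequence. The cluster at chr5:12807621-12828950 had 12 peaks, and 18253 bp further on chr5:12847203-12887386 had 13. Of the distinct 31-base words in the peaks of the first, 88.3% also occurred in those of the second, and 45.8% of the words of the second occurred in the first. The ChIP reads were 50 bases long, and shared 50-base words were not measured between these clusters. A read that is shared over its whole length can be placed on either cluster, so these peaks may not be separate events. The second cluster also held 5 arrays with a best offset of 447 bases and a GC content of 27.6% to 29.7%, a kind that no peak of the first cluster showed.

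The mitochondrial insertion of chromosome 2 formed the longest run of members outside the arrays. In it, 95.9% of the 50-base words over chr2:3239038-3509765 (270728 bp) also occurred in the mitochondrial genome. It held 29 members of 862 to 11461 bp that covered 46.3% of it, against 1.13% of the rest of the chromosome 2 window. Within these peaks 93.9% to 100% of the words, with a median of 98.0%, were mitochondrial, while a median of 0.492% were repeated in the nuclear genome. In 4 of the 29, however, at least 50% of the words were repeated there. Most of these peaks are thus nearly single-copy in the assembled nuclear genome. They have a near-identical counterpart in the mitochondria, and nuclear and mitochondrial reads cannot be told apart there. The 1 mitochondrial peak of the arms, chr1:24274726-24276159, had 86.9% of mitochondrial words.

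Genes under the members differed from those under arm peaks in number and type. A gene body of any kind was touched by 118 members (39.5%, 34.1 to 45.1), against 954 arm peaks (96.8%). A protein-coding gene lay under 69 members (23.1%), against 912 arm peaks (92.5%), a difference of -69.4 percentage points (-74.1 to -64.0). The first 1 kb of a protein-coding gene was touched by 62 members (20.7%), against 825 arm peaks (83.7%), and the 2 kb upstream of any gene by 125 (41.8%), against 812 (82.4%). Pseudogenes, leaving out those annotated as transcribed, were under the larger share of members, 47 (15.7%), against 16 arm peaks (1.62%). Genes of all other types, transcribed pseudogenes among them, lay under 31 members (10.4%), against 80 arm peaks (8.11%). The interval of this difference of 2.25 percentage points, -1.25 to 6.52, includes 0. No gene body was touched by 181 members (60.5%), against 32 arm peaks (3.25%). No member lay under a gene whose annotation names a transposon class (0 of 299, upper limit 1.27%), but the annotation used lists few transposons, so this says little about them.

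Again the classes differed. A protein-coding gene lay under 37 of the 51 single-copy members (72.5%), against 865 of the 924 single-copy arm peaks (93.6%). It lay under 23 of the 29 mitochondrial members, 5 of the 59 dispersed repeats, 3 of the 81 peaks in 178-base arrays and none of the 55 in 500-base arrays. Pseudogenes, again without the transcribed ones, lay under 24 of the 59 dispersed repeats. Overlap with protein-coding genes in the windows was thus mostly that of 2 classes, the single-copy peaks and the mitochondrial insertion. A gene body of any kind was touched by 47 single-copy, 29 mitochondrial and 29 dispersed-repeat members.

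**Figure D4:**
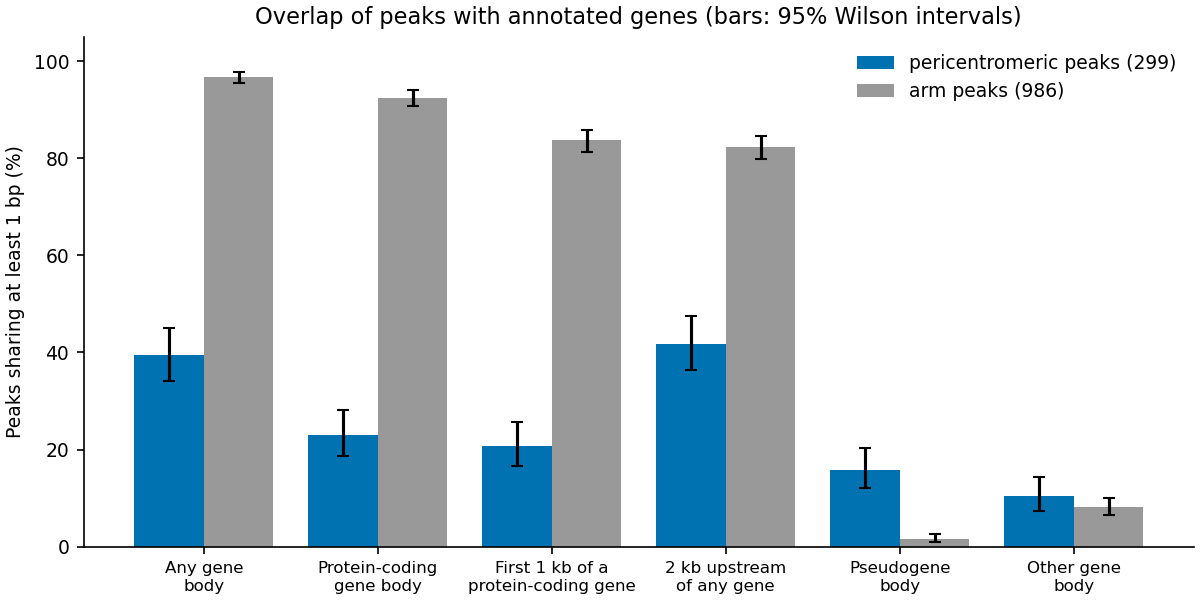
Share of peaks that share at least 1 bp with each kind of annotated feature (y axis, %), for 299 pericentromeric and 986 arm peaks, with 95% Wilson intervals that cover counting error. A protein-coding gene lay under 23.1% of pericentromeric and 92.5% of arm peaks, and a pseudogene under 15.7% and 1.62%. Transcribed pseudogenes are counted among the other genes.

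Short motifs were searched on both strands in the central 400 bases of each peak. GAGAGA, a word known from Polycomb response elements, occurred in 10.7% of members and 39.7% of arm peaks, a difference of -29.0 percentage points (-33.3 to -23.9), and in 24.9% of all 400-base tiles of the windows and 32.1% of those of the arms. The REF6 word, spelled CTCTGCTC, CTCTGCTT, CTCTGTTC or CTCTGTTT and bound by the H3K27me3 demethylase REF6, occurred in 7.69% of members and 17.6% of arm peaks (-9.85 points, -13.4 to -5.62), with 7.26% and 11.8% of the tiles. AAACCCTA, known as the telobox, occurred in 5.35% and 7.00%, a difference of -1.65 points whose interval of -4.34 to 1.83 includes 0, while the tiles ran the other way, with 6.48% in the windows and 4.77% in the arms. Within classes the values differed from these. GAGAGA was in 1.24% of 178-base and 3.64% of 500-base peaks but in 35.3% of single-copy members and 40.3% of single-copy arm peaks. The REF6 word was in no 178-base or 500-base peak. Among single-copy peaks it was in 25.5% of members and 17.8% of arm peaks, the opposite order to that over all peaks. No interval was computed for these class values, and with 51 single-copy members this order may lie within counting error. A match is a match of letters only. The single-copy members over AT1G34315 and AT1G36060, which changed in RNA (below), held no GAGAGA and are not shown. Stretches of 120 bases around a match are shown for the 3 that held it over protein-coding genes that changed. Capitals mark GAGAGA or its reverse complement TCTCTC.
AT1G35830, chr1:13321654-13321773 (+): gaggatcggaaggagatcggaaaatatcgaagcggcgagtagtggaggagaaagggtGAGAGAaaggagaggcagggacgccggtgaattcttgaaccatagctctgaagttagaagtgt
AT2G12190, chr2:4892529-4892648 (+): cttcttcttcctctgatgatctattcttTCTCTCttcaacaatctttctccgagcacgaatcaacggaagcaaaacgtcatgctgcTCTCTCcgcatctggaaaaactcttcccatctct
AAO2, chr3:15516871-15516990 (+): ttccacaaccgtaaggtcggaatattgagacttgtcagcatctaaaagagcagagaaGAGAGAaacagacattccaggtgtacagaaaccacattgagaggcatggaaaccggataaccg

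The transcripts of the genes under the members were compared between genotypes with counts from seedlings. Nuclear counts ran from 6545534 to 15225396 per library, and all p-values are adjusted by the Benjamini-Hochberg method in edgeR's quasi-likelihood test over all nuclear genes tested. One library stood apart: wt replicate 3 had 6.15% of its counts on organelle genes, against 0.268% to 1.52% in the other 11, and the most ribosomal RNA, and results that rest on it are given with and without it. Markers of shoot and root were present, with 9036 and 12510 CPM of the shoot gene RBCS1A and 137 and 143 CPM of the root gene PYK10 in *ubp12/13* and wt, and at most 0.025 CPM of the pollen gene VGD1 and the seed gene SESA1. UBP12 had 32.5 ± 4.75 CPM in *ubp12/13* and 99.0 ± 2.87 CPM in wt (SD, n = 3 each; log2 fold change -1.62, adjusted p = 6.49e-05). UBP13 had 79.1 ± 1.61 CPM in *ubp12/13* and 63.2 ± 0.499 CPM in wt, and 158 ± 11.5 CPM in the libraries labelled *ubp13* (log2 fold change 1.32 over wt, adjusted p = 5.93e-04). A count over the whole gene includes transcript on either side of a T-DNA, so the level of UBP13 does not check its allele. Counts were made from whole seedlings, and fewer cells of a type and less RNA per cell cannot be told apart.

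Under the 299 members lay 210 annotated genes, 96 of them protein-coding, 50 pseudogenes, 17 of the annotation's type misc_RNA, 16 transcribed pseudogenes, 16 transfer RNAs, 7 long non-coding RNAs, 5 microRNAs, 2 ribosomal RNAs and 1 other non-coding RNA. Of these, 49 have no row in the count table, 50 had no count in any library, and 34 passed the filter of more than 1 CPM in at least 2 of the 6 libraries. A gene was called at an adjusted p under 0.05 and a log2 fold change of at least 1 in size. In *ubp12/13* over wt 3 of the 34 were higher (8.82%) and 7 were lower (20.6%), beside 9.96% of all 17916 genes tested, 5.94% being higher and 4.02% lower. Their median log2 fold change was -0.21, beside -0.002 over all genes and -0.097 over the tested genes of the windows under no peak. With so few genes tested, leaving out wt replicate 3 changed both counts, to 1 higher and 4 lower, with a median of 0.03. The number of lower genes was 3, 2 and 3 without *ubp12/13* replicates 1, 2 and 3, and 4 and 8 without wt replicates 1 and 2.

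By class, none of the 10 genes under 178-base arrays passed the filter, 7 of them without a single count. Of 100 genes under mitochondrial members 10 were tested and 1 was higher, with a median log2 fold change of -0.13. Of 51 genes under single-copy members 17 were tested, 2 being higher and 4 lower, with a median of 0.36. Of 42 genes under dispersed repeats 6 were tested, 2 being lower, with a median of -1.19. The 1 tested gene under 500-base arrays was lower. For comparison, of 382 tested genes under arm peaks 61 were higher (16%) and 43 lower (11.3%), and of 608 tested genes of the windows under no peak 24 were higher (3.95%) and 39 lower (6.41%). In *ubp12* 32 of the members' genes were tested and edgeR called none (4 had an unadjusted p under 0.05), beside 0.683% of all genes, 0.469% being higher and 0.215% lower. In the libraries labelled *ubp13* 31 were tested and edgeR called none (4 had an unadjusted p under 0.05), beside 0.0284% of all genes, 0.0227% being higher and 0.00568% lower. These comparisons share the wt libraries with that of *ubp12/13*.

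The single-copy members with a higher gene included the one over AAO2 (AT3G43600), an aldehyde oxidase, whose peak at chr3:15516777-15517311 covered 535 bp of the start of the gene. AAO2 had 52.0, 58.4 and 45.9 CPM in *ubp12/13*, against 26.7, 25.1 and 22.7 CPM in wt. The groups did not overlap, and every double mutant library was well above every wt library (log2 fold change 1.06 ± 0.11 SE, adjusted p = 3.19e-04). Without *ubp12/13* replicate 2 the change was 0.97, under the fold limit, with adjusted p = 4.51e-04. In *ubp12* it averaged 26.1 ± 3.45 CPM and in the libraries labelled *ubp13* 23.0 ± 5.46 CPM (SD, n = 3 each), both near wt.

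AT2G12190 encodes a cytochrome P450, a family of oxygenases of secondary metabolism, and its peak at chr2:4891951-4893506 covered 1447 of its bases. It had 28.8, 33.0 and 25.5 CPM in *ubp12/13*, against 12.4, 17.5 and 9.66 CPM in wt. The groups did not overlap (log2 fold change 1.13 ± 0.19 SE, adjusted p = 0.00279). Without wt replicate 3 the change was 0.96, just under the fold limit, with adjusted p = 0.00919. About 24.8% of its 50-base words occur elsewhere in the nuclear genome, so some of its reads can come from a related gene.

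The third higher gene, AT2G07723, is a transcribed pseudogene of a cytochrome c biogenesis gene in the mitochondrial insertion, under 3 members. It had 3.10, 2.25 and 3.18 CPM in *ubp12/13*, against 1.64, 0.999 and 0.623 CPM in wt (log2 fold change 1.3 ± 0.33 SE, adjusted p = 0.0182). The groups did not overlap, but the call was lost without wt replicate 3 (1.07, adjusted p = 0.0525), wt replicate 2 (1.22, adjusted p = 0.0643) or *ubp12/13* replicate 1 (1.24, adjusted p = 0.0607). Of its words 96.4% also occur in the mitochondrial genome, so reads of mitochondrial transcripts cannot be told apart from its own.

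Among the lower genes AT1G34315, an uncharacterized protein-coding gene, had its first 386 bp under the peak chr1:12516136-12516871. It had 0.832, 0.414 and 0.303 CPM in *ubp12/13*, against 2.40, 2.87 and 4.21 CPM in wt. The groups did not overlap (log2 fold change -2.59 ± 0.40 SE, adjusted p = 0.00171), and the gene was expressed at a low level in all genotypes. In *ubp12* it averaged 2.1 ± 0.127 CPM and in the libraries labelled *ubp13* 2.32 ± 0.163 CPM (SD, n = 3 each).

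AT1G35830 encodes a protein with a VQ motif, a short motif of plant proteins that bind WRKY transcription factors. Its peak at chr1:13321052-13322333 lay wholly inside the gene. It had 0.227, 0.355 and 0.454 CPM in *ubp12/13*, against 1.20, 1.12 and 0.623 CPM in wt (log2 fold change -1.52 ± 0.43 SE, adjusted p = 0.0278). AT1G36060, annotated as an integrase-type (AP2/ERF-like) DNA-binding protein, had 0.530, 0.473 and 0.454 CPM in *ubp12/13*, against 1.31, 0.999 and 1.25 CPM in wt (-1.28 ± 0.33 SE, adjusted p = 0.0191), with a peak at chr1:13454669-13455757. Neither pair of groups overlapped, but both genes had few counts, and neither was called by DESeq2 (adjusted p = 0.0992 and 0.107). AT1G35830 lost its call without *ubp12/13* replicate 1 or 2 (adjusted p = 0.0855 and 0.0593) and its place in the test without wt replicate 1 or 2. AT1G36060 lost its call without *ubp12/13* replicate 2 or 3 or wt replicate 1 (adjusted p = 0.051, 0.05 and 0.0565).

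AT5G28145, a pseudogene of unique sequence, lay under 2 members that covered 3192 of its bases. It had 0.908, 0.651 and 0.757 CPM in *ubp12/13*, against 2.18, 3.25 and 4.21 CPM in wt, and the groups did not overlap (log2 fold change -2.03 ± 0.32 SE, adjusted p = 0.00205). *ubp12* lay between them, with 1.69 ± 0.463 CPM, and the libraries labelled *ubp13* had 2.70 ± 0.165 CPM (SD, n = 3 each), though neither single mutant was called.

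The other lower genes rested on wt replicate 3. The 18S gene AT3G41768 had 876, 430 and 432 CPM in *ubp12/13*, against 1307, 600 and 14430 CPM in wt, and the groups overlapped. Its log2 fold change of -3.25 ± 1.05 SE (adjusted p = 0.0453) became -0.72 (adjusted p = 0.234) without wt replicate 3. The 5.8S gene AT3G41979 likewise gave -3.39 (adjusted p = 0.0443) with that library and -0.79 (adjusted p = 0.233) without it. AT4G06477, a pseudogene under the 500-base array peak of chromosome 4, had 0.454, 0.473 and 0.832 CPM in *ubp12/13*, against 4.36, 0.749 and 71.5 CPM in wt (-5.39 ± 1.53 SE, adjusted p = 0.0274). Without wt replicate 3 it did not pass the filter. These 3 were also high in some *ubp12* libraries, with AT4G06477 at 24.9, 8.73 and 0.452 CPM, so they varied within genotypes. Leaving out any 1 *ubp12/13* library also took away the 3 calls (adjusted p from 0.0578 to 0.115), and without wt replicate 1 AT4G06477 was not tested. Ribosomal RNA depends on how well it was removed from a library, and its part here was not tested.

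**Figure D5:**
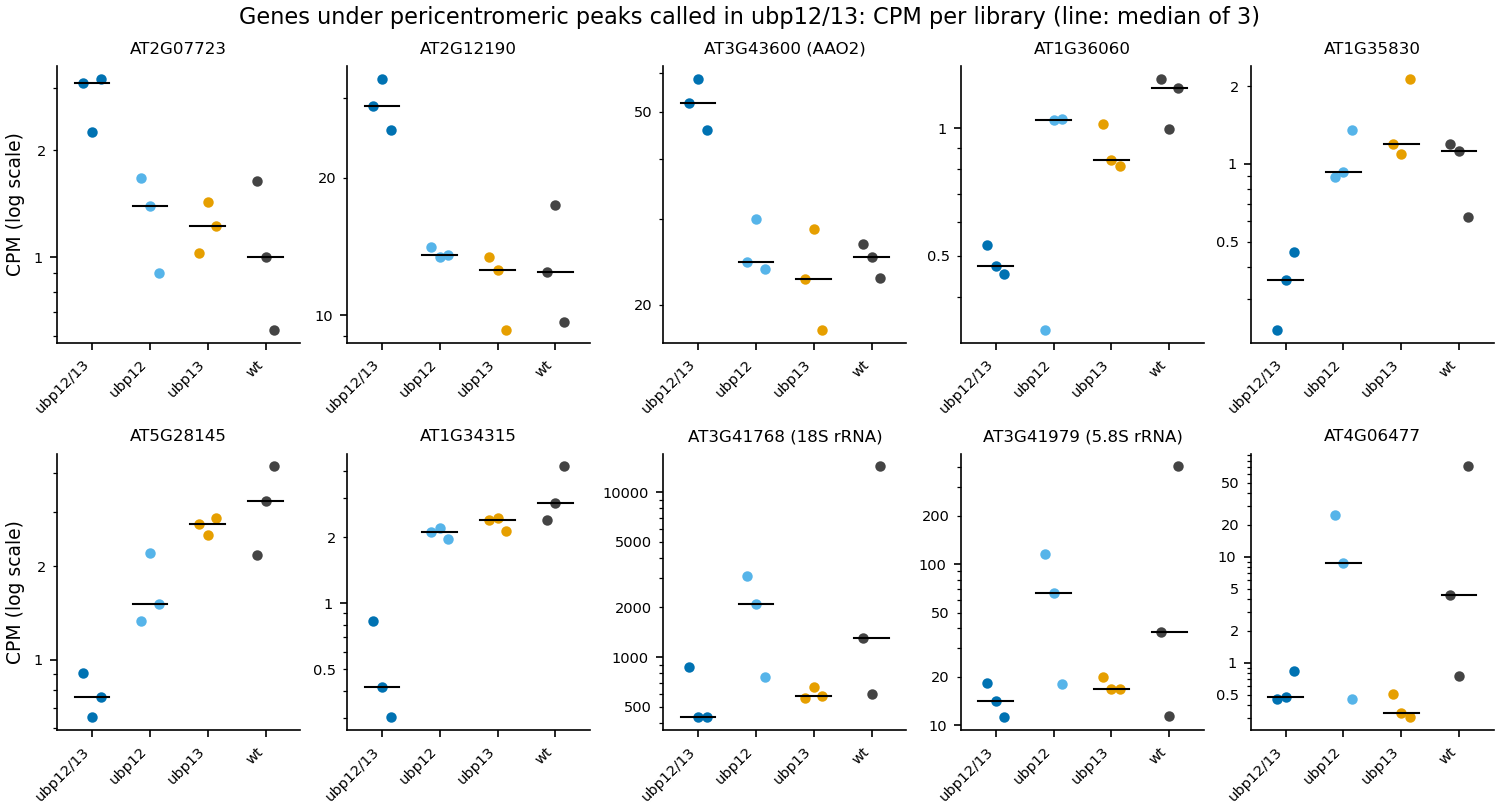
CPM per library (y axis, log scale) of the 10 genes under pericentromeric peaks called in *ubp12/13* over wt, with *ubp12/13*, *ubp12*, *ubp13* and wt from left to right (x axis), a point per library and a line at the median of 3. The 10 genes were picked by their call, which favours groups that do not overlap. In the 18S and 5.8S genes and AT4G06477 the wt spread is set by 1 library, with 14430 CPM of 18S in wt replicate 3.

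Other genes under single-copy members did not pass the test. MYB74, a transcription factor of stress responses, had 1.14, 1.12 and 0.757 CPM in *ubp12/13*, against 0.436, 0.499 and 0 CPM in wt (log2 fold change 1.55, adjusted p = 0.0722). PHI-1, a phosphate-responsive gene, had 52.7, 21.4 and 109 CPM in *ubp12/13*, against 10.6, 44.4 and 7.79 CPM in wt (1.52, adjusted p = 0.133), with overlapping groups. GRP-3, a glycine-rich protein and the gene under the members with the highest CPM apart from 18S, had 464 ± 61.4 CPM in *ubp12/13* and 348 ± 58.5 CPM in wt (SD, n = 3 each; 0.41, adjusted p = 0.0536). CRK36 and CRK40, a pair of cysteine-rich receptor-like kinases, had log2 fold changes of -0.80 and 0.69 (adjusted p = 0.16 and 0.12). These 5 genes were chosen for naming after their values were seen.

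Finally, genes of heterochromatin and PRC1 were looked at as a list of 27. Of 26 tested, 1 was higher and none lower in *ubp12/13* by edgeR as by DESeq2, with a median log2 fold change of 0.09 (4 genes with higher and 4 with lower levels had an unadjusted p under 0.05). The share of higher genes, 3.85%, was near the 5.94% over all genes, of which 4.02% were lower. The called gene was RING1B, a PRC1 ubiquitin ligase, with 8.32, 7.81 and 9.23 CPM in *ubp12/13*, against 3.38, 4.62 and 3.27 CPM in wt (log2 fold change 1.15 ± 0.17 SE, adjusted p = 0.00165). The DNA methyltransferases of non-CG sites CMT2 and CMT3 were at -0.72 and -0.70 (adjusted p = 4.0e-04 and 0.00609). MET1, the methyltransferase of CG sites, was at -0.37 (adjusted p = 0.0317), and RING1A, DRM2, a de novo DNA methyltransferase, and HTA7, a histone H2A.W of heterochromatin, at 0.67, 0.53 and 0.44 (adjusted p = 0.0148, 0.0198 and 0.0176), all under the fold limit of 1. None of the listed genes lay under a member.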

How the data were processed

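The authors trimmed RNA reads with cutadapt 1.18, mapped them to TAIR10 with TopHat2 and deposited raw HTSeq 0.11.1 counts per gene for 12 libraries, without normalization or pooling. For ChIP-seq they mapped reads with Bowtie2, removed duplicates, called broad MACS2 peaks over H3, compared genotypes with MAnorm in each replicate and merged overlapping peaks of both replicates. The deposited peak file holds positions and a score of 1. Multi-mapped reads are placed or dropped by the aligner, which bears on every repeat.

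Here edgeR 4.0.16 (R 4.3.3) tested counts of nuclear genes, with TMM normalization and genes over 1 CPM in at least 2 of 6 libraries. Of 33323 nuclear IDs 32835 were in the annotation, and 279 organelle IDs were left out. Sequences and genes are those of RefSeq TAIR10.1, whose nuclear coordinates equal TAIR10 and whose mitochondrial assembly is newer. Scripts were tested on simulated data. Intervals for peaks are Wilson, Newcombe and exact (SciPy 1.17.1).

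The members and lists were chosen with earlier results of these data known. Named genes were all called genes under members, those under the 5 widest peaks and in the 3 largest clusters, UBP12, UBP13 and leading members of the chromatin list. MYB74, PHI-1, GRP-3, CRK36, CRK40 and MET1 were added after their values were seen. HTSeq's strand setting is not given in the sources used here, so overlapping and antisense genes may share counts.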

Additional observations from a re-analysis of the deposited data

How the results depend on the processing

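Of the 14 other settings tried for each of the 10 called genes, none that gave a value reversed a direction. The setting without a fold limit used the main fit, so it could not reverse any. The number of lower genes, 7, moved to 2 with more than 1 CPM required in all 6 libraries and to 3 for genes touched in their first 1 kb. Leaving out 1 library gave 1 to 4 higher and 2 to 8 lower genes. The 7 became 3 with the replicate block, but equal replicate numbers do not pair these samples (correlations of deviations -0.059, -0.165 and -0.116). DESeq2 gave 3 higher and 5 lower. Library totals without TMM shifted all genes by 0.15 (log2) and gave 4 higher and 7 lower, with 71.6% of calls over all genes higher, against 59.6%. Without a fold limit 2859 genes were higher and 2713 lower over all genes. The density ratio of 1.38 became 1.61 with windows narrowed by 0.5 Mb, 1.91 per 100 annotated genes, 0.556 for peaks with mostly unique words, and, chosen after seeing the data, 1.57 without chromosome 4 and 0.983 without chromosome 5. Gaps of 2 kb and 50 kb put 57.2% and 88.3% of members in clusters, against 11.2% and 64.3% of arm peaks. A protein-coding gene overlapped 50% or more of the peak in 16.4% of members. Repeated words were the majority in 68.2% of members at 31 bases and in 48.2% at 100 bases. A self-match limit of 60%, chosen after seeing the data, put 32.8% of members in the 178-base and 500-base classes, against 45.5%. The cause of these shifts was not tested. The merged peak list gives no replicate error.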
